A study of Mus musculus with 12 samples.

Results

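The genes described here encode the nuclear part of the mitochondrial respiratory chain and ATP synthase. They were chosen by symbol from the deposited count table: the Nduf subunits of complex I, the Sdh subunits of complex II, the Uqcr subunits and Cyc1 of complex III, the Cox4 to Cox8 subunits of complex IV and the Atp5 subunits of complex V, without pseudogenes. Of 53819 symbols, 86 matched, with 37 in complex I, 4 in complex II, 9 in complex III, 19 in complex IV and 17 in complex V. Complexes were assigned by symbol, so all complex I values include Ndufa4, which is now placed in complex IV. The counts come from 12 libraries of E14 mouse embryonic stem cells, a standard cell line, grown in 2D culture. There were 4 groups of 3 libraries: cells given L-proline and budesonide together for 72 h ("both"), cells given L-proline alone for 72 h, cells given budesonide alone for 72 h, and untreated control cells. Proline is an amino acid known to move mouse embryonic stem cells out of the naive state, budesonide is a synthetic glucocorticoid, and the labels give no doses. All libraries are of 1 cell line, and the labels do not state whether replicates came from separate cultures. The p-values therefore measure spread between libraries that may be no more than technical.

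Complex I takes electrons from NADH, and complex II, which is also the succinate dehydrogenase of the citric acid cycle, takes them from succinate. Both pass them through ubiquinone to complex III, which hands them by way of cytochrome c to complex IV, where oxygen is reduced to water. Complexes I, III and IV pump protons, and complex V, the ATP synthase, uses the gradient to make ATP. Most subunits are encoded in the nucleus and imported, while a small set of core subunits is encoded in mitochondrial DNA. Naive mouse embryonic stem cells are known to use both glycolysis and respiration, and cells of the primed state to rely more on glycolysis.

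Transcription factors long linked to these genes, NRF-1, the ETS factor GABP and YY1, bind short sequences near the start site. The promoter table of RefSeq (GRCm38.p6, 250 bases before to 50 bases after the start) held 69 of the 86 genes. On either strand, GCGCATGC (core of the NRF-1 site) was found in 14.5% of these 69 promoters, against 6.22% of the promoters of all tested genes. CCGGAAG (core of the GABP site, shared by other ETS factors) was found in 24.6%, against 20.1%, and AAGATGGC (core of the YY1 site) in 14.5%, against 5.31%. In all, 31 of the 69 promoters, 44.9%, held at least 1 of the 3 motifs. This share is not given for all tested genes, so it has no background beside it. The NRF-1 core reads nearly the same on both strands, so that 1 site can match on each. Of the 27 genes whose level was called different in at least 1 comparison below, 20 had a promoter in the table and 10 held a motif. These 10 of 20 are close to the 31 of 69 over all members. Their matches are shown in windows of 30 bases, with the motif in capitals, to put the sequence beside the gene's values. A match is a description of letters and not a bound site.
GABP core, Atp5h, chr11:115419939-115419968, minus strand: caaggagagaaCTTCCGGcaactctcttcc
GABP core, Atp5j, chr16:84835019-84835048, minus strand: agctgagggacCCGGAAGcacttaccctcc
GABP core, Cox6a1, chr5:115348956-115348985, minus strand: ccccatttccgCTTCCGGcgcgccggtgta
GABP core, Cox6b1, chr7:30626124-30626153, minus strand: tcctctcgcagCTTCCGGccagtcggaatt
GABP core, Ndufb7, chr8:83566727-83566756, plus strand: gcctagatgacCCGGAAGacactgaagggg
NRF-1 core, Cox6a1, chr5:115349100-115349129, minus strand: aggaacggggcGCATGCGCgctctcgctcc
NRF-1 core, Ndufa6, chr15:82354356-82354385, minus strand: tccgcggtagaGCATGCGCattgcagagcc
YY1 core, Atp5j, chr16:84835046-84835075, minus strand: aaagtgtaggaAAGATGGCggagtcttagc
YY1 core, Atp5j2, chr5:145191500-145191529, minus strand: accaggacttcAAGATGGCgtcactcggtg
YY1 core, Ndufb8, chr19:44555393-44555422, minus strand: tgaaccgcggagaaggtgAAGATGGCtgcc
YY1 core, Ndufc1, chr3:51408915-51408944, minus strand: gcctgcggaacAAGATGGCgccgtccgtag
YY1 core, Ndufs7, chr10:80249462-80249491, plus strand: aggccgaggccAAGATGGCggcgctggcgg

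The membrane ring of ATP synthase is built from subunit c, which mammals encode in 3 genes, Atp5g1, Atp5g2 and Atp5g3. Their precursors differ in the import signal, and the mature subunit is known to be the same. Atp5g1 was called lower with budesonide and Atp5g3 higher with proline, as described below, and the 200 bases from 250 to 51 bases before their start sites are shown for comparison. They held none of the 3 motifs, and their GC contents were close, 51.5% for Atp5g1 and 50.5% for Atp5g3.
Atp5g1, chr11:96075682-96075881, minus strand: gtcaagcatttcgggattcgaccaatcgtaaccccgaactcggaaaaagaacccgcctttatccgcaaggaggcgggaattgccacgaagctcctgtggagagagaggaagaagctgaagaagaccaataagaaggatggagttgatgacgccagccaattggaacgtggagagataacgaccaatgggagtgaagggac
Atp5g3, chr2:73911377-73911576, minus strand: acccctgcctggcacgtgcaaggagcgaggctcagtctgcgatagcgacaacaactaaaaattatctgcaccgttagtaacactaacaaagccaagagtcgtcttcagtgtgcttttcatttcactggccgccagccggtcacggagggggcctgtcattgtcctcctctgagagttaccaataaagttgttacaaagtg

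Levels are given as CPM, the counts of a gene scaled to the same effective library total in all libraries. The kit reads about 1 fragment near the 3′ end of each polyadenylated transcript, so CPM is not divided by length. Column sums ran from 5299432 to 15921283 counts. A limit of 3 counts corresponds to 0.188 to 0.566 CPM. In budesonide 3 and control 3, 8.43% and 6.57% of tested genes had no count, and elsewhere 1.39% to 5.77% had none. Summed markers of fibroblasts or feeder cells ran from 2.51 to 11.7 CPM, with Postn and Lum at 0 throughout. After a filter on low counts 13852 genes were tested, among them 81 of the 86. Cox8b had no count in any library, Cox6a2 had 2 counts, both in control 1, and Ndufs5, Cox4i2 and Cox8c had 20, 42 and 40 counts over all libraries. The Ndufs5 pseudogene Ndufs5-ps held 1445 counts and Ndufa12-ps held 6932, so Ndufs5 and Ndufa12 are uncertain. Overlapping gene models make others uncertain, since the strand setting of the counting is not given in the sources used here. These include Atp5j with Gabpa, Ndufa13 with Tssk6, Ndufa2 with Tmco6, Ndufb5 with Mrpl47, Ndufb6 with Smim27, Atp5a1 with Haus1, Ndufb8 with Gm20538 and Ndufb9 with Gm49356.

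Summed over all members, the level was lower with budesonide alone than in control cells, with no overlap between the libraries. Sums are given without a test. They were 25418, 24752 and 27607 CPM with both compounds, 26702, 27285 and 25482 CPM with proline, 23464, 23942 and 23362 CPM with budesonide and 26486, 26923 and 28989 CPM in control cells. The budesonide mean was 85.9% of the control mean. As a share of all counts before scaling, the members made up 2.57% with both, 2.60% with proline, 2.46% with budesonide and 2.69% in control cells (group means). In bulk RNA, fewer cells of a type and less RNA per cell cannot be told apart. By complex, the budesonide mean was 82.2% of control for complex I, 95.6% for complex II, 86.3% for complex III, 89.9% for complex IV and 84.8% for complex V. Complex V gave 7318, 7400.4 and 7327 CPM with budesonide, against 8564, 8434 and 8998 CPM in control cells. Complex IV was lower with proline, at 6772, 6879.8 and 6269 CPM, against 7227, 7613 and 7896 CPM in control cells, which is 87.6% of the control mean. With both compounds complex IV gave 7324, 7173 and 8103 CPM, above each proline library. Complex II, with 4 genes, stayed between 511 and 592 CPM in all 12 libraries.

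**Figure D1:**
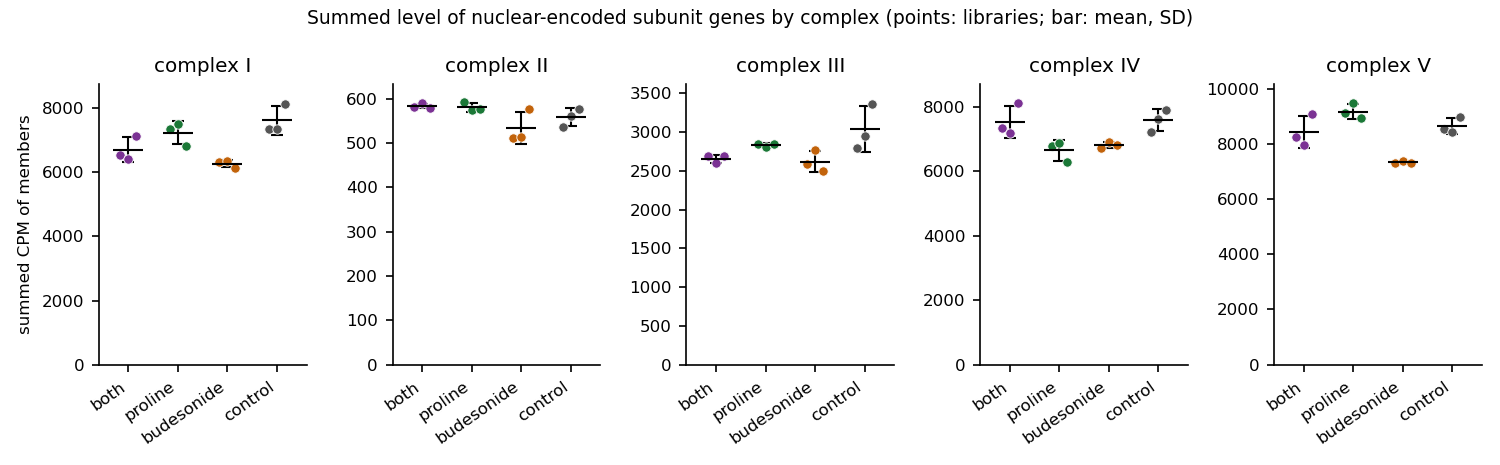
Summed CPM of the members of each complex (vertical axes, from 0) in the 12 libraries, with points for libraries and bars for the mean and SD of 3. The budesonide points lie below the control points for complexes I, III, IV and V, and the proline points below the control points for complex IV.

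Some genes of complexes I, III, IV and V were called lower with budesonide alone, with median log2 changes of −0.29 in complex I, −0.28 in complex III, −0.06 in complex IV and −0.30 in complex V. Of the 81 tested members 17 were called lower against control cells and 0 higher (edgeR, Benjamini-Hochberg adjusted p below 0.05 over all genes). Of all tested genes 4.0% were called lower and 2.51% higher. The members called lower were 9 of 36 in complex I, 0 of 4 in complex II, 2 of 9 in complex III, 2 of 15 in complex IV and 4 of 17 in complex V. The median log2 change was −0.25 over members, and 63 of 81 values were negative, while the median over all tested genes was 0.01. DESeq2 called 23 of the 85 members it tested lower and 0 higher, and kept 16 of the 17 edgeR calls. The share of all genes that DESeq2 called is not given here, so its count has no background beside it. The 8 markers of pluripotent stem cells summed to 2348 to 2627 CPM with budesonide, against 2734 to 3493 CPM in control cells. The 4 trophoblast markers summed to 9.35 to 11 CPM with budesonide, against 3.39 to 5.78 CPM in control cells. All markers of both lists had counts, and their part in the result was not tested. The list of adjusted p-values crossed the threshold between Ndufb3 (0.0492) and Ndufb5 (0.050, just above it).

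**Figure D2:**
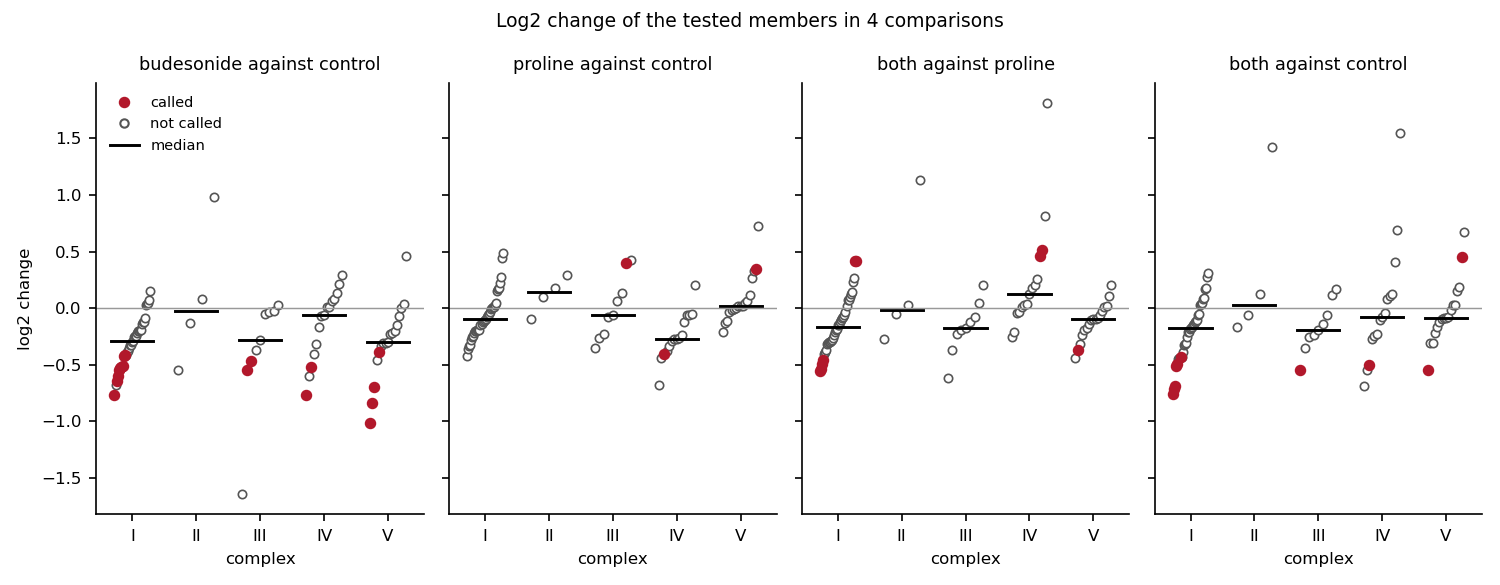
Log2 change of each of the 81 tested members (points, vertical axis) by complex (horizontal axis) in 4 comparisons, with filled points for those called by edgeR and a bar for the median. In budesonide against control the 17 filled points all lie below 0, and in proline against control the 15 points of complex IV have a median of −0.27.

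In complex V the largest called change was in Atp5h, the d subunit of the peripheral stalk that holds the catalytic head still. Atp5h had 189, 159 and 134 CPM with budesonide, against 387, 304 and 284 CPM in control cells. All 3 budesonide libraries lay below all 3 control libraries, with a log2 change of −1.01 ± 0.15 (SE, edgeR adjusted p = 0.000197). With proline alone it had 276, 365 and 261 CPM, which overlapped control, and with both compounds 227, 204 and 236 CPM, above every budesonide and below every control library. Atp5j, coupling factor of the same stalk, had 135, 72.8 and 132 CPM with budesonide, against 253, 233 and 120.3 CPM in control cells. These groups overlap, since control 3 sits among the budesonide values, and the log2 change was −0.83 ± 0.24 (SE, edgeR adjusted p = 0.0402). The stalk genes Atp5o and Atp5pb were not called, at −0.07 and −0.22.

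Among the c-subunit genes Atp5g1 was called, with 152, 162 and 142 CPM with budesonide, against 229.7, 236 and 270.3 CPM in control cells. Its libraries did not overlap and its log2 change was −0.69 ± 0.12 (SE, edgeR adjusted p = 0.000706). Atp5g3, the c-subunit gene with the most counts, had 962, 1055 and 951 CPM with budesonide, against 909.6, 992 and 996 CPM in control cells, a log2 difference of 0.03 ± 0.09 (SE, edgeR adjusted p = 0.90). Atp5g2 had far fewer counts, with 3.05, 9.61 and 4.48 CPM against 7.53, 6.17 and 9.56 CPM, and was not called. The membrane subunit f gene Atp5j2 was called lower at −0.38 ± 0.11 (SE, edgeR adjusted p = 0.0381). The 5 genes of the catalytic head, Atp5a1, Atp5b, Atp5c1, Atp5d and Atp5e, were not called, with log2 changes of −0.31 to −0.15. The beta subunit Atp5b, which makes ATP, had 1386, 1393 and 1406 CPM with budesonide, against 1635, 1523 and 1662 CPM in control cells.

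**Figure D3:**
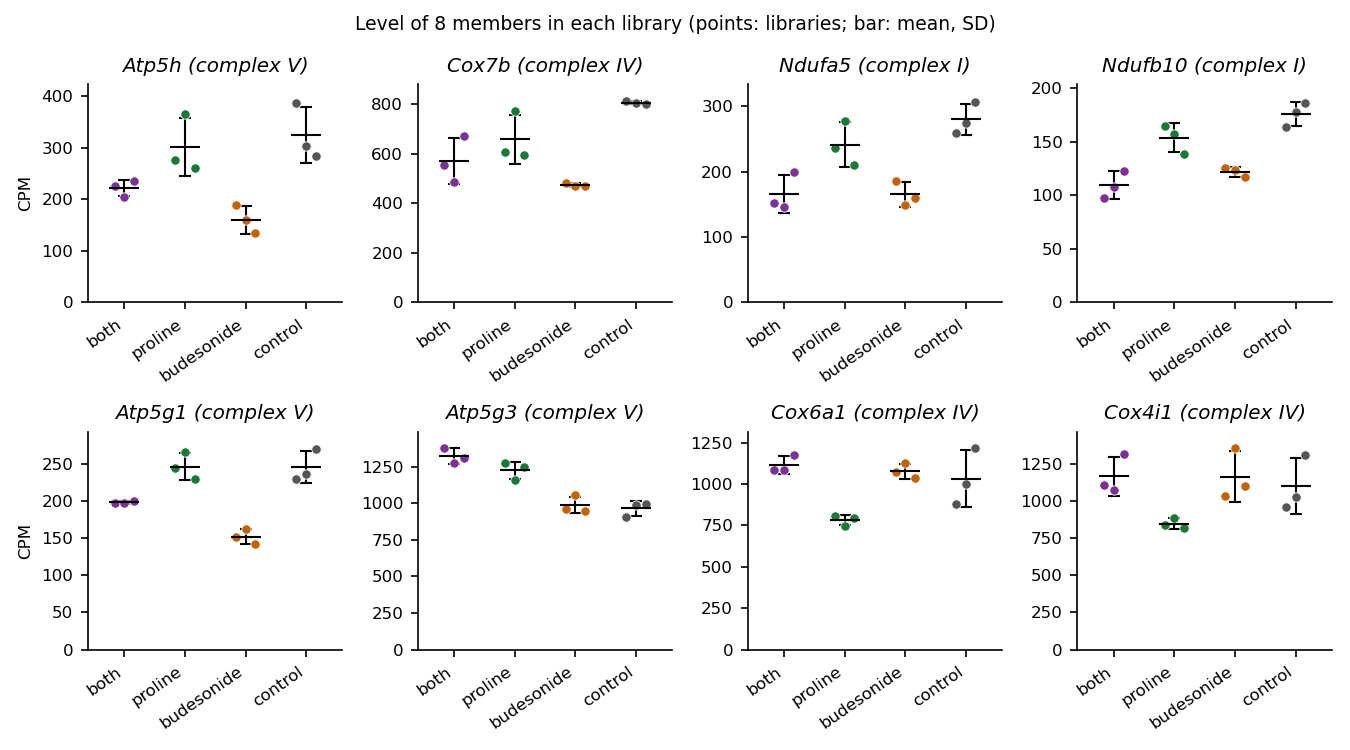
CPM (vertical axes, from 0) of 8 members in each of the 12 libraries, with points for libraries and bars for the mean and SD of 3 per group. Atp5h, Cox7b, Ndufa5 and Atp5g1 are lower in every budesonide library than in every control library, Atp5g3 is higher in both groups that received proline, and Cox6a1 and Cox4i1 are lowest with proline alone.

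In complex I 8 of 29 genes counted as accessory subunits, which surround the catalytic core, were called lower. Ndufa4 is among the 29 by its symbol. The accessory subunit Ndufa5 of the matrix arm had 186, 149.6 and 160.3 CPM with budesonide, against 259.9, 275 and 306 CPM in control cells. The groups did not overlap, at −0.76 ± 0.14 (SE, edgeR adjusted p = 0.00161). Ndufa6, which binds the mitochondrial acyl carrier protein, had 213, 202 and 179.8 CPM with budesonide, against 290.5, 285 and 293 CPM in control cells, a log2 change of −0.55 ± 0.12 (SE, edgeR adjusted p = 0.00461). In the membrane arm, Ndufb7 had 142, 137 and 127 CPM with budesonide, against 191, 205 and 239 CPM in control cells, a log2 change of −0.64 ± 0.14 (SE, edgeR adjusted p = 0.00514). Other called accessory genes were Ndufb10 at −0.53, Ndufa13 at −0.52, Ndufb3 at −0.51, Ndufa10 at −0.42 and Ndufc1 at −0.42 (edgeR adjusted p 0.0149 to 0.0492). The core genes Ndufs8, at −0.33, and Ndufs1, at 0.15, were not called. Ndufb9 and Ndufa7, the complex I genes with the most counts, had log2 changes of 0.05 and −0.20 and were not called.

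In complex III the called genes were Uqcrq and Uqcrfs1. Uqcrq, a small membrane subunit, had 473, 544 and 435 CPM with budesonide, against 594, 619 and 789 CPM in control cells, with a log2 change of −0.46 ± 0.12 (SE, edgeR adjusted p = 0.0157). Uqcrfs1, the Rieske iron-sulfur protein, had 116, 129 and 105 CPM with budesonide, against 197, 172 and 141 CPM in control cells, with a log2 change of −0.54 ± 0.15 (SE, edgeR adjusted p = 0.0291). Cyc1, which carries the haem that reduces cytochrome c, had 189.7, 210.5 and 216 CPM against 199, 219 and 211 CPM and was not called. The hinge protein gene Uqcrh, at 0.03, was not called either. The most negative estimate, −1.64 ± 0.68 (SE) for the core protein gene Uqcrc2, rests on 3 to 34 counts in the budesonide libraries and 30 to 52 in the control libraries, and missed the threshold (edgeR adjusted p = 0.165). In complex II no gene was called: the flavoprotein Sdha stood at 0.09, the iron-sulfur subunit Sdhb at −0.13, and the membrane anchor Sdhc at −0.55 ± 0.17 (SE, edgeR adjusted p = 0.0523).

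In complex IV the genes moved unequally with budesonide. Cox7b had 484, 469 and 472 CPM with budesonide, against 813, 806 and 799 CPM in control cells. Both groups were tight, and the log2 change was −0.76 ± 0.12 (SE, edgeR adjusted p = 0.000355). Cox6b1, a subunit on the side where cytochrome c docks, had 360.4, 426 and 393 CPM with budesonide, against 512, 549 and 623 CPM in control cells, a log2 change of −0.51 ± 0.13 (SE, edgeR adjusted p = 0.0172). Cox6c had 1070.3, 1077 and 989.6 CPM with budesonide, against 1184, 1272 and 1450.1 CPM in control cells, and was not called at −0.32 ± 0.10 (SE, edgeR adjusted p = 0.0598). Cox7c, the complex IV gene with the most counts, had 1130.5, 734 and 1228 CPM with budesonide, against 1259, 1322 and 637 CPM in control cells. Its groups overlap widely, with budesonide 2 and control 3 low. Cox4i1 and Cox6a1 stood at 0.08 and 0.06 and were not called.

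The members that budesonide left uncalled were not spread evenly around 0. In complex I 16 of the 27 uncalled genes had a log2 change of −0.20 or less and none had one of 0.20 or more, from −0.68 in Ndufa1, a small membrane subunit, to 0.15 in Ndufs1, the core subunit of the NADH side with the most iron-sulfur clusters. In complex V 8 of 13 uncalled genes were at −0.20 or less, and Atp5l, subunit g of the membrane part, was the 1 gene above 0.20, at 0.46. In complex IV 8 of the 13 uncalled genes lay between these limits. The share of all uncalled genes beyond these limits is not given here, so these counts have no background beside them. Genes outside the set of at most 1000 bases had a median of −0.17 in this comparison, and 67.9% of the members with a length are that short. The part of transcript length in these counts was not tested. The typical SE was 0.14 in complex I and 0.12 in complex V (medians over the uncalled genes), so a change of 0.20 lies within 2 SE for a typical gene. Over all 6 comparisons 54 of the 81 tested members were never called.

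Of the 17 calls, 4, in Atp5h, Cox7b, Atp5g1 and Ndufa5, held in all 21 alternative settings. With any 1 library left out, Ndufa6 and Ndufb7 also kept their calls, and the number called ran from 12 to 15. Ndufb10 missed the threshold without control 2 or budesonide 3 (edgeR adjusted p up to 0.0560) and Cox6b1 without control 3 or budesonide 1 (edgeR adjusted p up to 0.0775). Uqcrq missed it without control 3, budesonide 1 or budesonide 3 (edgeR adjusted p up to 0.103), and Ndufa13 without control 3, budesonide 1 or budesonide 2 (up to 0.219). Atp5j missed it without control 1, control 2 or budesonide 2, and Uqcrfs1 without control 1, control 2, budesonide 1 or budesonide 3 (edgeR adjusted p up to 0.179 and 0.164). Atp5j2 missed it without control 3, proline 1, any budesonide library, both 1 or both 2, and Ndufa10 without control 2, control 3, proline 3, budesonide 1, budesonide 3, both 1 or both 2 (edgeR adjusted p up to 0.227 and 0.205). Ndufb3 kept its call only without control 3 or budesonide 3, and Ndufc1 only without control 2, with edgeR adjusted p up to 0.224 and 0.206. Without control 3 and budesonide 3 together 14 members were called lower, 8 of them among the 17.

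The transcripts of these genes are short, and short transcripts were lower with budesonide in general. The median length was 709 bases over the 78 tested members with a value, and 67.9% were at most 1000 bases, against a median of 2683 bases and 12.4% over all tested genes with a value. In budesonide against control, the other genes of at most 1000 bases had a median log2 change of −0.17, and those over 8000 bases one of 0.19. The 53 members of at most 1000 bases had a median of −0.28 and 12 called lower, 22.6%, against 7.0% of the 1628 other genes of that length. In the 20 members of 1000 to 2000 bases the median was −0.21 and 4 were called lower, 20.0%, against a median of −0.10 and 5.75% of 2976 other genes. With an offset per library that follows transcript length, 7 members were called lower, among them Atp5g1, Atp5h, Cox7b, Ndufa5, Ndufb7 and Sdhc, against 3.34% of all genes, and the member median was −0.13. With offsets for length and GC content the same 7 were called lower and Cox7a2 higher, against 3.39% and 2.08% of all genes. The member median was then −0.10. Transcript length therefore moves with the budesonide result, and its part in the calls lost under the offsets was not tested.

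**Figure D4:**
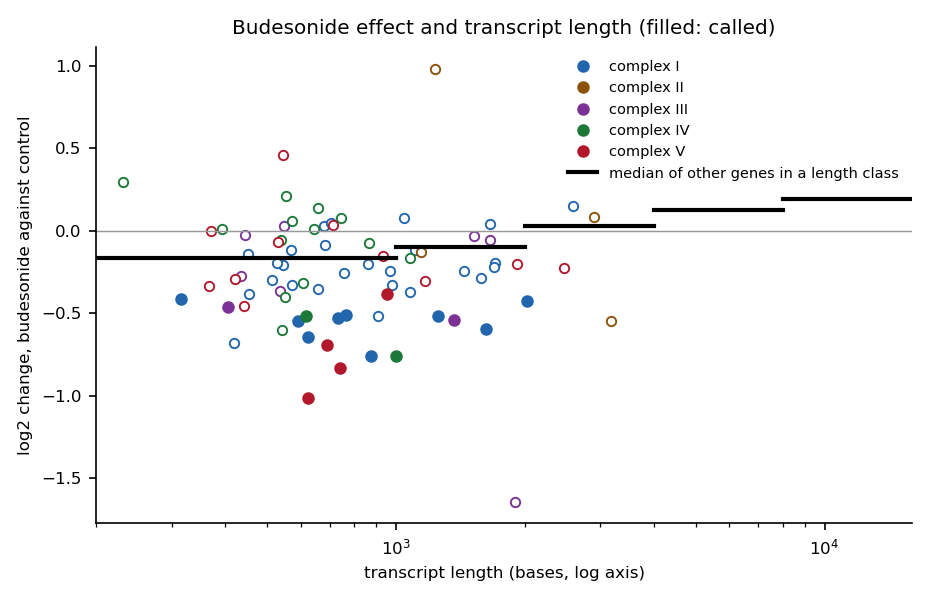
Log2 change in budesonide against control (vertical axis) against transcript length in bases (horizontal axis, log scale) for the 78 tested members with a length, coloured by complex and filled where called. Black lines give the median of the other genes in each length class, −0.17 up to 1000 bases and 0.19 over 8000 bases.

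Proline alone changed few of these genes. Of 81 tested members 2 were called higher and 1 lower against control cells, while 3.17% of all tested genes were called higher and 4.71% lower. Atp5g3 had 1275, 1163 and 1247 CPM with proline, against 909.6, 992 and 996 CPM in control cells, with no overlap and a log2 change of 0.35 ± 0.09 (SE, edgeR adjusted p = 0.0181). Cyc1 had 265, 277 and 286 CPM with proline, against 199, 219 and 211 CPM in control cells, also without overlap, at 0.39 ± 0.11 (SE, edgeR adjusted p = 0.0306). Cox6a1, the common form of a small complex IV subunit, had 805, 747 and 794 CPM with proline, against 881, 999 and 1218 CPM in control cells, and was called lower at −0.40 ± 0.11 (SE, edgeR adjusted p = 0.0192). Each of the 3 lost its call without some library: Atp5g3 without control 1, proline 1 or proline 3 (edgeR adjusted p up to 0.0911), Cox6a1 without control 3 or any proline library (up to 0.131), and Cyc1 without any control or proline library (up to 0.122). With 1 library left out, 0 to 4 members were called, with 1 called without control 3 and 0 without proline 1 or proline 3. With control 3, proline 3 and budesonide 2 all left out, a choice made after seeing the data, 0 were called.

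By complex, the proline values differed in sign. The 6 endoderm markers, none at 0 in all libraries, summed to 22.0 to 26.3 CPM with proline, against 6.01 to 13.4 CPM in control cells, and their part in these values was not tested. In complex IV 14 of 15 log2 changes were negative, with a median of −0.27, and in complex V 11 of 17 were positive, with a median of 0.02. The median over all tested genes was −0.01. Cox4i1, the common form of the largest nuclear-encoded complex IV subunit, had 836, 886 and 815 CPM with proline, against 960.4, 1025 and 1311 CPM in control cells. All proline libraries lay below all control libraries, yet the change of −0.38 ± 0.12 (SE, edgeR adjusted p = 0.0590) missed the threshold. Cox7b, Cox8a and Cox6b1 also lay below control in every proline library, at −0.29, −0.26 and −0.24, and were not called. For Cox8a the gap was narrow, with 461.8 CPM in proline 1 and 463.9 CPM in control 2. The share of all tested genes whose libraries do not overlap is not given here, so this has no background beside it. The alpha subunit gene Atp5a1 had 1221, 1330.2 and 1399 CPM with proline, against 1064, 1044 and 1166 CPM in control cells, and was not called at 0.27 ± 0.10 (SE, edgeR adjusted p = 0.0979). In complex I none of 36 genes was called, with a median of −0.10, and 24 were negative.

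When budesonide was added to proline, Cox6a1 and Cox4i1 of complex IV and 2 genes of complex I were called higher than with proline alone. Complex I, with 36 of the 81 tested members, also held 4 of the 5 genes called lower. Of 81 members 4 were called higher and 5 lower, 4.94% and 6.17%, against 5.83% and 4.27% of all tested genes. With length offsets 4 were called higher and 3 lower, against 5.35% and 3.83% of all tested genes. With length and GC offsets 5 were called higher and 1 lower, against 5.25% and 3.78%. Ndufb10 and Ndufs7 lost their calls with either offset, and Atp5a1 and Ndufa5 with the length and GC offsets. Cox6a1 had 1083, 1084 and 1175 CPM with both, against 805, 747 and 794 CPM with proline, with no overlap. Its log2 change of 0.51 ± 0.11 (SE, edgeR adjusted p = 0.00253) held in all 21 alternatives. Cox4i1 had 1106, 1074 and 1314 CPM with both, against 836, 886 and 815 CPM with proline, at 0.46 ± 0.12 (SE, edgeR adjusted p = 0.0154). The complex I genes Ndufb8 and Ndufb9 of the membrane arm were also called higher, at 0.42 and 0.41 (edgeR adjusted p = 0.0457 and 0.0363). Both have an overlapping gene model on the same strand. Ndufb8 lost its call without control 2, any proline library, budesonide 1, both 1 or both 3, and Ndufb9 without any proline library, both 1 or both 3 (edgeR adjusted p up to 0.205 and 0.214). In complex IV 11 of 15 values were positive, with a median of 0.13.

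The 5 genes called lower when budesonide was added to proline included Ndufa5, Ndufb10, Ndufs7 and Atp5a1. Ndufa5 had 153, 146 and 199 CPM with both, against 236, 278 and 209.8 CPM with proline, at −0.54 ± 0.14 (SE, edgeR adjusted p = 0.0147). Atp5a1 had 1035, 919 and 1104 CPM with both, against 1221, 1330.2 and 1399 CPM with proline, at −0.37 ± 0.10 (SE, edgeR adjusted p = 0.0153). In neither gene did the groups overlap. Ndufs7, the core subunit with the last iron-sulfur cluster before ubiquinone, changed by −0.46 and Ndufb10 by −0.49 (edgeR adjusted p = 0.0426 and 0.0161). Cox4i1 lost its call without proline 1, proline 3 or both 3, and Ndufa5 without proline 2, both 1 or both 2 (edgeR adjusted p up to 0.0896 and 0.0939). Atp5a1 lost its call without proline 3, both 1 or both 2, and Ndufb10 without proline 1, proline 2, both 1 or both 2 (edgeR adjusted p up to 0.110 and 0.112). Ndufs7 lost its call without control 2, any proline library, both 1 or both 2 (edgeR adjusted p up to 0.174). The count of 9 came to 4 without proline 1, 3 without proline 2, 4 without proline 3, 2 without both 1 and 4 without both 2, and to 7 to 11 without any of the other libraries.

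This comparison shares no library with budesonide against control, so it measures budesonide again, in the presence of proline. All 17 members called lower with budesonide alone had a negative log2 change, from −0.55 to −0.04, with a median of −0.28, against −0.54 without proline. Over all 554 genes called lower with budesonide alone these medians were −0.44 and −0.66. Of these 554 genes 93.5% had a negative change here. Of the 17 members, 3 were called lower again (Ndufa5 and Ndufb10 among them), 17.6%, against 233 of the 554, or 42.1%. These shared calls are 60.0% of the 5 members called lower when budesonide was added to proline. Over all tested genes the shared calls are 233 of the 591 called lower there. Atp5h, at −0.44 ± 0.15 (SE, edgeR adjusted p = 0.0648), Atp5g1, at −0.31 ± 0.12 (SE, edgeR adjusted p = 0.0930), and Cox7b, at −0.21 ± 0.12 (SE, edgeR adjusted p = 0.320), were not called in the presence of proline.

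With both compounds against control cells, 1 member was called higher and 9 lower of 81, against 3.34% and 3.83% of all tested genes. Atp5g3 had 1383, 1275 and 1309 CPM with both, above every control library, with a log2 change of 0.45 ± 0.09 (SE, edgeR adjusted p = 0.00275). Ndufa5 had 153, 146 and 199 CPM with both, at −0.76 ± 0.14 (SE, edgeR adjusted p = 0.00143). Ndufb10 had 96.9, 107 and 123 CPM with both, against 164, 178 and 186 CPM in control cells, at −0.69 ± 0.13 (SE, edgeR adjusted p = 0.00174). Ndufb7 had 119.6, 129 and 140.1 CPM with both, at −0.71 ± 0.14 (SE, edgeR adjusted p = 0.00195). These 4 calls held in all 21 alternatives. Uqcrq was called lower at −0.54 ± 0.12 (SE, edgeR adjusted p = 0.00460), with 456, 448 and 472 CPM with both. Also called lower were Ndufa2 at −0.49, Ndufb5 at −0.43, Cox7b at −0.50 and Atp5h at −0.55 (edgeR adjusted p 0.0105 to 0.0260). Without both 1 the count of 10 came to 6, without both 2 to 5, and without any other library to 9 or 10. Ndufa2 also lost its call without control 3, Atp5h without control 1 and Ndufb5 without control 2 or both 3, with edgeR adjusted p of up to 0.155. Ndufa2, Ndufb5 and Atp5h lost their calls with either offset, Cox7b with the length and GC offsets and Uqcrq with the length offsets. Complex I had a median log2 change of −0.18 and complex V one of −0.09. The median over all 81 members was −0.12, and it was −0.06 with length offsets and −0.04 with length and GC offsets. Members of at most 1000 bases had a median of −0.12, against −0.14 for the other genes of that length.

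With both compounds against budesonide alone, Atp5g3 was called higher and no member lower, against 0.874% and 0.592% of all tested genes. Atp5g3 had 1383, 1275 and 1309 CPM with both, against 962, 1055 and 951 CPM with budesonide, at 0.42 ± 0.09 (SE, edgeR adjusted p = 0.0204). Its edgeR adjusted p was as high as 0.123 without budesonide 1, budesonide 3 or any of the libraries with both compounds, where the call was lost. Over the 81 members 59 values were positive, with a median of 0.12, and the median of all tested genes was 0.01. Atp5h had 227, 204 and 236 CPM with both, against 189, 159 and 134 CPM with budesonide, at 0.47 ± 0.15 (SE, edgeR adjusted p = 0.140). Atp5g1 had 197, 197 and 200.3 CPM with both, against 152, 162 and 142 CPM with budesonide, at 0.38 ± 0.12 (SE, edgeR adjusted p = 0.113). Both genes were higher in each library with both compounds, and neither was called.

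The interaction asks whether the proline effect differed with budesonide present. By edgeR 0 of 81 members were called, against 0.411% of all tested genes called higher and 0.0578% called lower, and 13 members had an unadjusted p below 0.05, while 8.65% of all tested genes did. DESeq2 also called 0. The median was 0.16 over members and 0.03 over all tested genes, and 18 of 81 values were negative, against 47.4% of all tested genes. Complex IV had the highest median of the complexes, 0.35, with 14 of 15 values positive and 7 with an unadjusted p below 0.05. Cox7b stood at 0.56 ± 0.17 (SE, edgeR adjusted p = 0.219), Cox6a1 at 0.45 ± 0.15 (SE, edgeR adjusted p = 0.303), Cox6b1 at 0.48 ± 0.18 (SE, edgeR adjusted p = 0.423) and Atp5h at 0.58 ± 0.21 (SE, edgeR adjusted p = 0.382).

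Most members varied little between the libraries of a group, and a few varied widely. The median SD within groups was 0.17 on the log2 scale over the 81 members tested, with no limit on level. It was 0.26 over the 7944 genes whose mean log2 level was at least that of 10 CPM. These sets were not matched for level. Of the 77 members with a plain mean of at least 10 CPM, a different limit, 8 had an SD over 0.35. Among these, 7 were below their group mean in control 3, proline 3 and budesonide 2: Cox5a, Sdhd, Ndufb6, Atp5j, Ndufa1, Atp5md and Cox7c. Over all 81 tested members 17 were below in all 3 libraries, and over the 7944 genes 14.1% were. Sdhd, a membrane anchor of complex II, had 38.3, 77.6 and 24.3 CPM with both, 8.96, 48.4 and 7.50 CPM with proline, 30.1, 3.25 and 69.4 CPM with budesonide and 28.8, 20.4 and 3.08 CPM in control cells. Cox5a, a subunit near the matrix side of complex IV, had 28.5, 44.4 and 20.8 CPM with both, 5.69, 17.9 and 3.33 CPM with proline, 10.7, 0.620 and 20.7 CPM with budesonide and 19.5, 12.7 and 0 CPM in control cells. Ndufb6 had 25.8, 7.90 and 37.1 CPM with budesonide and 44.3, 39.7 and 7.25 CPM in control cells. The last 300 bases of the transcripts of 6 of the 7 had a median GC content of 38.2%, against 48.3% over the members and 43.3% over all tested genes. Low GC content there also occurred in members that varied little, such as Cox5b (35.3%, SD 0.06) and Ndufv2 (32.0%, SD 0.13). The 7 members were picked after their values were seen, so this is a description. With those 3 libraries left out, 12 members were called lower in budesonide against control, 10 of them among the 17, and Atp5j was among the 10.

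**Figure D5:**
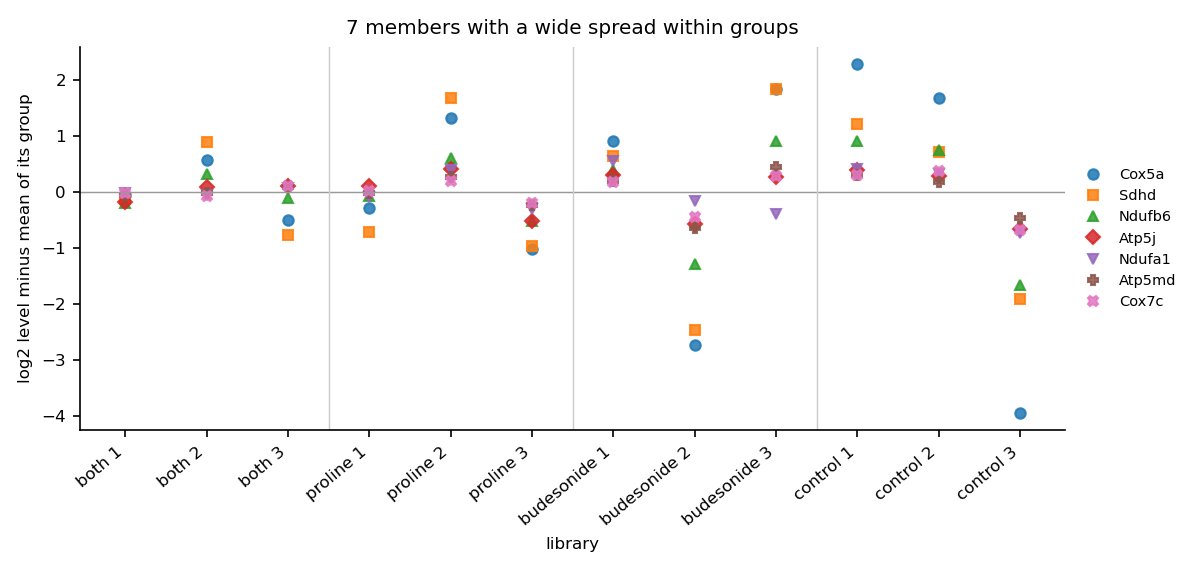
Log2 level minus the mean of its own group (vertical axis) of 7 members with a wide spread within groups, in each of the 12 libraries (horizontal axis). The points of control 3, proline 3 and budesonide 2 lie below 0, and the lowest point, Cox5a in control 3, had no count there, so that its position is set by the prior count.

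Several complex IV subunits have another form that adult tissues such as muscle, heart or testis use. CPM here is not divided by length, so the forms are given side by side without a ratio. Cox6a1 averaged 1033 ± 171 CPM in control cells, while Cox6a2 had 2 counts in all. Cox7a2 averaged 703 ± 54.1 CPM in control cells, and its muscle form Cox7a1 had 31.2, 31.0 and 29.2 CPM with both, 18.4, 15.1 and 18.3 CPM with proline, 16.8, 27.3 and 13.2 CPM with budesonide and 19.0, 17.7 and 19.9 CPM in control cells. Cox7a1 was highest with both compounds in every library and was not called, at 0.82 ± 0.27 (SE, edgeR adjusted p = 0.0593) against proline. The testis form Cox6b2 averaged 50.8 ± 7.61 CPM in control cells, beside 561 ± 56.8 CPM for Cox6b1, and was not called in any comparison. Cox7b2 and Cox6c2 stayed below 4 CPM in every library. Cox8a averaged 519 ± 74.3 CPM in control cells, while Cox8c reached at most 2.17 CPM. Cox7a2l, which helps to join complexes III and IV, and Ndufa4, now placed in complex IV, were not called in any comparison, with control means of 103 ± 20.4 and 222 ± 28.1 CPM (SD, n = 3 for each mean here).

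Few genes of the lists around the chain were called. The 43 tested assembly factors had a median log2 change of −0.25 in budesonide against control, and the 81 members had a median of −0.25 too. Of the 43, 10 had an unadjusted p below 0.05 (edgeR), and of the 81 members 36 did, against 20.0% of all tested genes. Of the 43, 1 was called lower and 0 higher, against 4.0% and 2.51% of all tested genes. Among the assembly factors, Ndufaf4 was called lower with proline at −0.57 ± 0.17 (SE, edgeR adjusted p = 0.0363) and Ndufaf2 lower with budesonide at −0.58 ± 0.17 (SE, edgeR adjusted p = 0.0392). Both help to build complex I. Surf1, an assembly factor of complex IV, and Tmem70, one of complex V, were called lower with both against proline, at −0.96 and −0.96. Of 18 mobile carriers and entry points, Dhodh was called higher with proline (0.64) and Coq7 lower with both against proline (−0.71). Of 12 regulators, among them Nrf1, Gabpa and Tfam, Yy1 was called lower with both against proline (−0.45), and no other was called in any comparison. Of 13 citric acid cycle genes, Sucla2 was called lower with proline, Idh3b lower with budesonide and Suclg1 lower with both against proline. Of all tested genes 3.17% were called higher and 4.71% lower with proline, 4.0% lower with budesonide and 4.27% lower with both against proline. The calls in these short lists are given as single genes and not as a result about a list. The ATP synthase inhibitor Atpif1, whose symbol lies outside the pattern, had 423, 442 and 529.6 CPM with budesonide, against 651, 635 and 802 CPM in control cells, a log2 change of −0.58 ± 0.12 (SE, edgeR adjusted p = 0.00372).

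Of the 13 partner subunits encoded in mitochondrial DNA 7 were tested. With proline 5 of the 7 were called lower, against 4.71% of all tested genes. Among them were mt-Nd4 and mt-Cytb at −0.69 ± 0.08 and −0.49 ± 0.08 on the log2 scale (SE). Mitochondrial transcripts made up 5.51% to 5.79% of the counts with proline, against 7.31% to 7.77% in control cells. With budesonide alone mt-Nd2 and mt-Nd4 were called lower, and with both against proline 6 of 7 were called higher, among them mt-Co1 of complex IV at 0.65 ± 0.10 (SE, edgeR adjusted p = 0.000132). The interaction was called higher for 3 of the 7, mt-Nd2, mt-Nd4 and mt-Cytb, against 0 of the 81 nuclear genes and 0.411% of all tested genes.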

How the data were processed

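RNA was measured with a 3′ tag kit in 12 libraries, and the authors deposited 1 table of raw counts per gene symbol. Per the submitters' processing notes, the tools included bcl2fastq, cutadapt 2.5, STAR 2.7.5c, featureCounts 2.0 and DESeq2, with genome GRCm39; the sources used here do not give the strand setting or annotation. From the counts, edgeR 4.0.16 in R 4.3.3 fitted all 12 libraries in 1 quasi-likelihood model, after dropping genes that failed its low-count filter (minimum count 10, minimum total 15), with TMM scaling and a prior count of 0.125. Benjamini-Hochberg adjustment ran over all 13852 tested genes, the threshold was 0.05, and the SE is the size of the log2 change divided by the square root of F. The biological coefficient of variation was 0.29. Libraries held 5299432 to 15921283 counts. A floor was set at 3 counts, and floors cover counting error only. Genes were named if they belong to the set, by call and by role. Transcript lengths came from GENCODE (GRCm38) by symbol, with values for 97.7% of tested genes. The fit was tested on simulated data. The members, lists and added alternatives were chosen with earlier results of these data known. Of 21 alternatives, leaving out control 3, proline 3 and budesonide 2 together was added after seeing the data. DESeq2 1.42.0 was an alternative. The values of 1 complex I gene are not reported here, and counts include it.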

Additional observations from a re-analysis of the deposited data

How the results depend on the processing

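In budesonide against control the 17 members called became 8 with offsets for transcript length and GC content, 7 with offsets for length and 9 with only the libraries of the 2 groups, which leaves fewer samples. Without 1 library the count ran from 12 to 15. In proline against control the 3 became 7 with DESeq2, 0 without control 3, proline 3 and budesonide 2 together, and 0 to 4 without 1 library. In both against proline the 9 became 2 to 11 without 1 library, and in both against control the 10 became 5 to 10. In both against budesonide the 1 became 2 with DESeq2, 6 with no low-count filter, 0 with either offset, 3 without control 3 and budesonide 3 together, and 0 to 1 without 1 library. The interaction gave 0 in every fit run. Where not stated, the cause was not tested. Over single members and alternatives 634 calls were kept, 206 were lost and 0 changed sign. The member median was −0.13 with length offsets and −0.10 with length and GC offsets in budesonide against control. Without mitochondrially encoded genes and Rn18s in the total, the members' share of counts was 2.93% with both, 2.84% with proline, 2.79% with budesonide and 2.99% in control cells. Same-numbered libraries of different groups did not deviate together (correlations of −0.08 to 0.05 over 18 pairs, and 3 of 12 libraries correlated best with their own number), so the numbers were not taken as pairs. With the replicate number as a block, the members called were 3 in proline against control, 12 in budesonide against control, 6 in both against proline (Ndufb8, Ndufb9 and Ndufs7 were lost), 10 in both against control, 1 in both against budesonide and 0 for the interaction. Depth limits statements on Uqcrc2, Atp5g2, Cox7b2 and Cox6c2, which have few counts.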
